A study of Vulpes lagopus with 12 samples.

Results

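Cells take up iron bound to transferrin through the transferrin receptor, store it in ferritin shells of heavy and light chains, and release it through a single exporter, ferroportin. Iron regulatory proteins bind stem-loops in the messages of these genes, and so set ferritin and receptor synthesis against the iron supply. In blood, red cell precursors and reticulocytes draw iron into mitochondria for haem, while neutrophils and monocytes hold it away from microbes. The genes described here are 10 of this system. The storage genes are the ferritin chains FTH1 and FTL and the ferritin-degradation receptor NCOA4. The import and export genes are the transferrin receptor TFRC and the transporters SLC11A1, SLC11A2, SLC25A37 and SLC40A1. The sensing genes are the iron regulatory proteins ACO1 and IREB2.

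They were measured on an array made for the dog (Affymetrix Canine Genome 2.0) in blood of Arctic foxes (Vulpes lagopus) that the design statement says was examined for polychlorinated biphenyls and mercury. Every probe set with 1 of the 10 symbols as its single gene symbol in the probe annotation was taken, which gave 22 of 42924 tested probe sets and at least 1 probe set for each of the 10 genes, of 15115 genes with such a probe set. The series holds 11 fox arrays, numbered 1 to 11 in the order in which they are listed, and 1 array titled as a canine control. All 12 carry the tissue label blood. Exposure, age and sex of single foxes are not in the labels, so the foxes form 1 group, and the labels do not state that the samples came from separate animals. All values are log2 values, and the control has no replicate.

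The control array carried markers of solid organs. Of 9 measured liver markers 7 were higher there by limma, and the mean level of the liver list was 13.22 against 7.25 to 7.63 in the foxes; 7 of 7 gut markers and 5 of 7 skeletal muscle markers were also higher. Of 7 neutrophil and 7 monocyte markers, 5 each were lower and 0 higher, and of 11 erythroid markers 8 were lower and 1 higher, beside 44.6% of all genes lower and 18.5% higher. With each array shifted to the same median, 5, 4 and 6 of them were lower, beside 26.0% of all genes. Of 7 platelet, 11 T cell and 7 B cell markers, 4, 6 and 7 were lower and 0, 1 and 0 higher. After the same shift 4, 4 and 2 of these were lower. Foxes 9, 10 and 11 stood apart from foxes 1 to 8 on an array control, the GAPDH 3′ minus middle difference (0.42 to 1.08 against 2.56 to 3.19), and on the SD of all values on the array (1.93 to 2.02 against 1.60 to 1.79). The canine control lay beyond every fox on both measures (−0.08 and 2.11), and its median (6.85) lay under those of the foxes (7.06 to 7.17). The part of these measures in the differences between control and foxes was not tested. In blood as a whole, fewer cells of a type and less RNA per cell cannot be told apart. Results are therefore given with and without these 3 foxes.

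**Figure D1:**
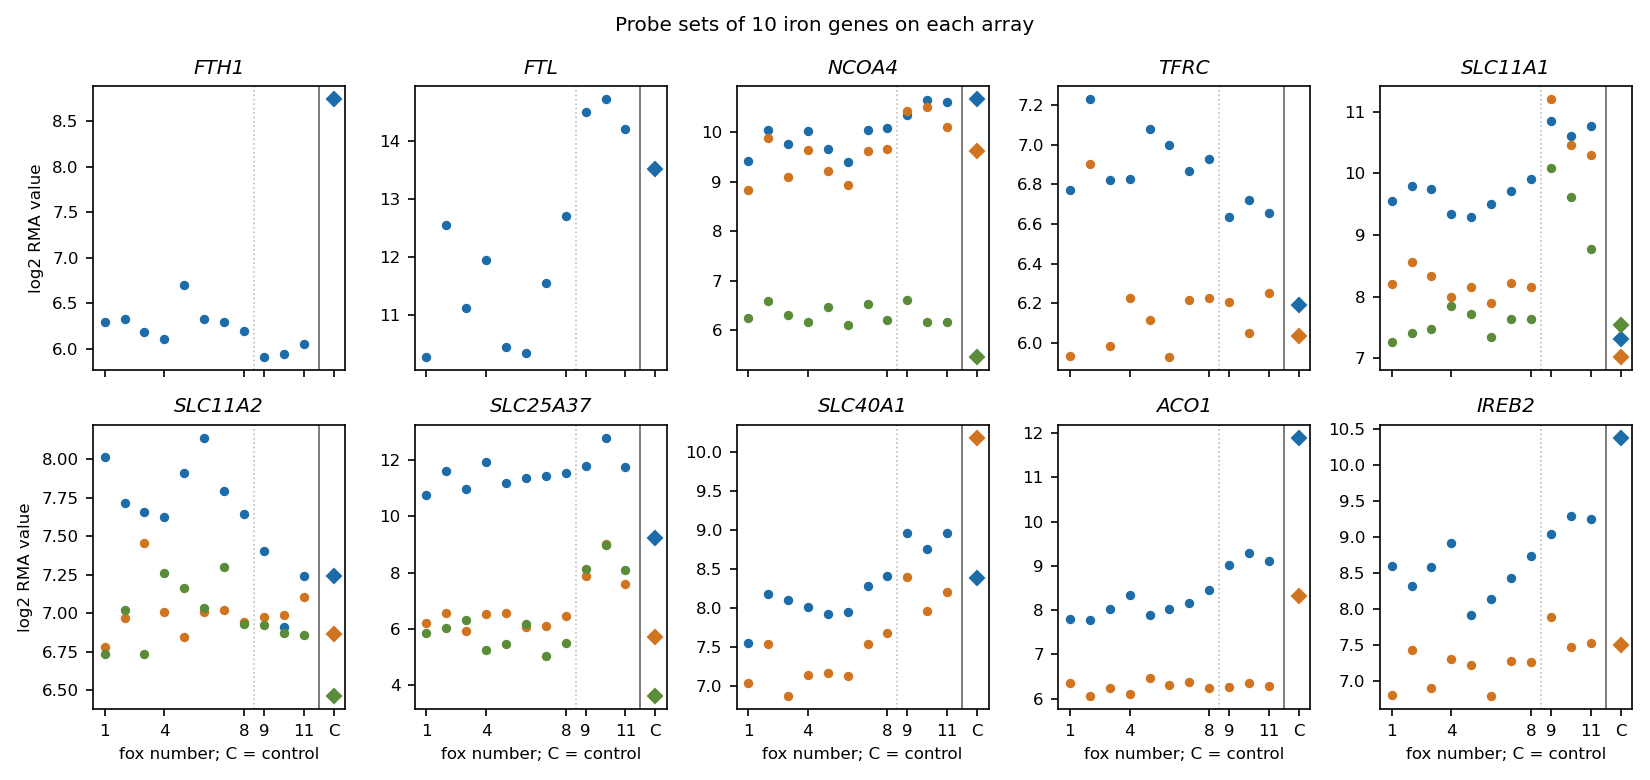
Log2 value (vertical axis, a scale of its own in each panel) of every probe set of the 10 genes on each of the 11 fox arrays (dots) and the control (C, diamonds); colours separate probe sets of 1 gene, and the dotted line lies between foxes 8 and 9. FTL lies at 10.27 to 12.70 for foxes 1 to 8 and at 14.19 to 14.71 for foxes 9, 10 and 11, while FTH1 stays between 5.90 and 6.70 in the foxes and stands at 8.75 on the control.

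How far the iron genes differed among the foxes was asked first. FTL had the widest spread of the 22 probe sets, and 13 probe sets of 7 genes were higher in each of foxes 9, 10 and 11 than in any of foxes 1 to 8. A further 3 probe sets, 1 each of FTH1, TFRC and SLC11A2, lay lower in all 3 of these foxes. Over all tested probe sets, 12.6% lay above and 14.6% below in this way. An SD of at least 0.5 over the 11 foxes was reached by 10 of the 22 probe sets, beside 14.8% of all probe sets. Within foxes 1 to 8 it was reached by 1 of 22, that of FTL, beside 6.996% of all. The median SD of the 22 was 0.45 over 11 foxes and 0.25 within foxes 1 to 8, beside 0.22 and 0.18 for all probe sets. These shares describe the foxes with no test, and the array control moves with them; its part in them was not tested.

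FTL, the light chain that helps iron mineralise inside the ferritin shell, was measured by 1 probe set of a kind (suffix x) whose probes can also match other sequences; 2 further probe sets that also carry another symbol were not counted. It stood at 10.27 in fox 1, 10.35 in fox 6 and 10.45 in fox 5. Foxes 3 and 7 followed at 11.12 and 11.56, and foxes 4, 2 and 8 at 11.94, 12.55 and 12.70. Foxes 11, 9 and 10 stood at 14.19, 14.48 and 14.71, so that a gap separated them from the other 8. The SD was 1.66 over 11 foxes and 0.98 over foxes 1 to 8. After quantile normalization again these SDs were 1.07 and 0.63, and foxes 9, 10 and 11 (13.56 to 13.88) still lay above foxes 1 to 8 (10.99 to 12.72).

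By its single probe set, FTH1, the heavy chain that oxidises iron for storage, did not follow FTL. The probe set lay between 5.90 in fox 9 and 6.70 in fox 5, with a median of 6.20 and an SD of 0.22 (n = 11). All of these values were under the median of every fox array (7.06 to 7.17). Foxes 9, 10 and 11 (5.90 to 6.05) were the lowest, just under foxes 1 to 8 (6.10 to 6.70). Ferritin genes have near-identical processed copies in mammalian genomes, so what each probe set binds in the fox is uncertain.

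NCOA4, which carries ferritin to lysosomes for iron release, had 3 probe sets. That with the highest mean ran from 9.40 in fox 6 through a median of 10.04 to 10.66 in fox 10, and foxes 9, 10 and 11 (10.36 to 10.66) lay above foxes 1 to 8. The second behaved alike (8.83 to 9.88 and 10.11 to 10.51), and over foxes 1 to 8 these 2 probe sets ran together (r = 0.95, rho = 0.83, exact permutation p 0.0020, adjusted over 16 pairs of probe sets of 1 gene 0.0313; r = 0.89 without the 2 foxes farthest from the median). It was the 1 pair of the 16 that passed. The third probe set of NCOA4 was even, between 6.09 and 6.60, under the median of every fox array (7.06 to 7.17).

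Among the transporters, SLC11A1 (NRAMP1), the divalent metal pump of phagocyte lysosomes, showed the separation of foxes 9, 10 and 11 in all 3 probe sets. The first stood at 9.29 to 9.92 in foxes 1 to 8 and at 10.86, 10.61 and 10.77 in foxes 9, 10 and 11. The second stood at 7.90 to 8.56 and at 11.21, 10.46 and 10.30. The third stood at 7.26 to 7.85 and at 10.09, 9.61 and 8.78. Within foxes 1 to 8 each of the 3 varied little, with SDs of 0.22, 0.20 and 0.20 (n = 8).

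SLC25A37 (mitoferrin), the mitochondrial iron importer that feeds haem synthesis in red cell precursors, was highest in fox 10 by all 3 probe sets. The first ran from 10.77 in fox 1 to 11.96 in fox 4 within foxes 1 to 8. Foxes 9 and 11 (11.80 and 11.78) lay inside that range, and fox 10 stood at 12.81. In the other 2 probe sets foxes 9, 10 and 11 lay apart, at 7.59 to 9.01 against 5.92 to 6.57 and at 8.10 to 8.97 against 5.03 to 6.30. SLC40A1, ferroportin, lay higher in foxes 9, 10 and 11 by both probe sets, at 8.76 to 8.96 against 7.55 to 8.41 and at 7.97 to 8.39 against 6.87 to 7.68.

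TFRC, the transferrin receptor of dividing and haem-forming cells, went with fox 2. It was highest there by both probe sets, at 7.23 against 6.63 to 7.08 in the other foxes and at 6.90 against 5.93 to 6.25. Fox values of the second TFRC probe set all lay under the median of every fox array (7.06 to 7.17). SLC11A2 (DMT1), which moves iron out of endosomes, had 3 probe sets. The first lay at 7.62 to 8.14 in foxes 1 to 8 and lower, at 7.40, 6.91 and 7.24, in foxes 9, 10 and 11. In the other 2, all foxes lay between 6.74 and 7.46, and the 3 foxes fell inside foxes 1 to 8.

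Of the iron sensors, the first probe set of ACO1, the cytosolic aconitase that becomes an iron regulatory protein when iron is short, lay between 7.77 and 8.46 in foxes 1 to 8, and foxes 9, 10 and 11 stood at 9.02, 9.29 and 9.10. Its second was the most even of the 22, between 6.06 and 6.46 with an SD of 0.12 (n = 11). These values all lay under the median of every fox array (7.06 to 7.17). IREB2, the other iron regulatory protein, was higher in foxes 9, 10 and 11 by both probe sets (9.04 to 9.30 against 7.92 to 8.92, and 7.47 to 7.88 against 6.79 to 7.42). Thus the probe sets of 1 gene did not always order the foxes alike. Within foxes 1 to 8, r between the 2 probe sets was −0.16 for ACO1, 0.10 for IREB2, and 0.71 for both TFRC and SLC40A1. Over the pairs of a gene, r ran from −0.32 to 0.55 for SLC11A1 and from −0.47 to 0.54 for SLC25A37. It ran from −0.44 to −0.11 for SLC11A2 and from 0.37 to 0.95 for NCOA4.

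Whether the iron genes ran with each other was asked within foxes 1 to 8 alone, since the other 3 foxes stand apart. Each gene entered by its probe set with the highest mean. Of 45 gene pairs, 28 had a positive r, and the median r was 0.26. After adjustment 1 pair passed and 6 did before it. That pair was FTH1 with IREB2, which ran in opposite order: FTH1 was highest (6.70) and IREB2 lowest (7.92) in fox 5, and FTH1 was lowest (6.10) and IREB2 highest (8.92) in fox 4. Pearson's r was −0.89 (exact permutation p 0.00042, adjusted 0.0190) and Spearman's rho −0.90 (exact permutation p 0.0046, adjusted 0.0685). Without the 2 foxes farthest from the median of FTH1, r was −0.78. With any 1 of the 8 foxes left out the pair passed in 4 of 8 fits and was lost without fox 4, 5, 7 or 8 (adjusted exact permutation p from 0.0268 to 0.173). The FTH1 range behind this is 0.60 log2 units, and it lies under the medians of these 8 arrays (7.10 to 7.17). With a gene's probe sets averaged, r was −0.64 (adjusted exact permutation p 0.293), and after quantile normalization again it was −0.84 (adjusted exact permutation p 0.121).

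The storage genes FTL and NCOA4 had an r of 0.92 and a rho of 0.90, which did not pass (exact permutation p 0.0027, adjusted 0.0614; r = 0.95 without the 2 foxes farthest from the median). With each array shifted to the same median the pair passed (r = 0.92, adjusted exact permutation p 0.0409), and after quantile normalization again r was 0.60 (adjusted exact permutation p 0.497). SLC40A1 had an r of 0.79 with FTL and of 0.82 with NCOA4, and SLC11A2 an r of −0.81 and −0.87 with them. None of these 4 passed (adjusted exact permutation p from 0.0770 to 0.144; without the 2 farthest foxes r was 0.67, 0.73, −0.86 and −0.55).

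**Figure D2:**
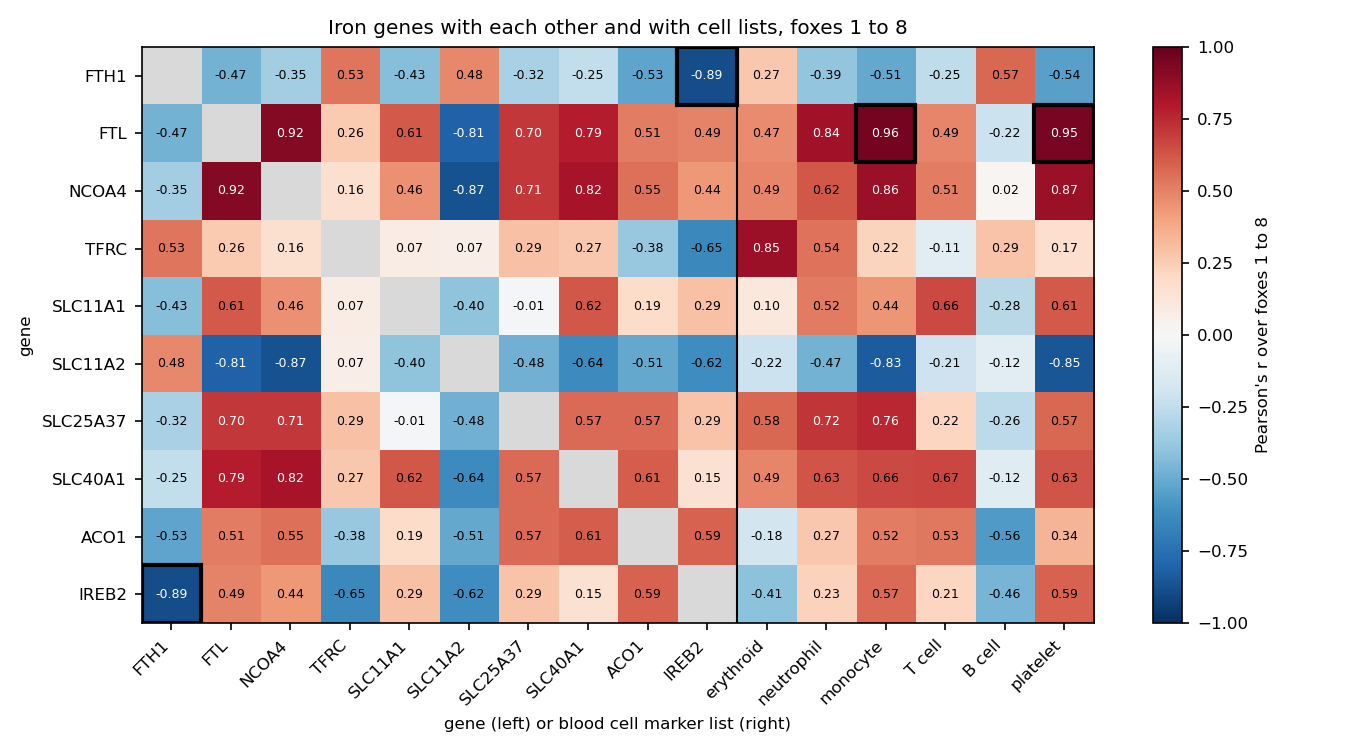
Pearson's r over foxes 1 to 8 (colour and printed value) between the 10 genes (rows; columns on the left) and between each gene and the score of 6 blood cell marker lists (columns on the right); black frames mark an adjusted exact permutation p under 0.05. FTH1 with IREB2 (−0.89) and FTL with the monocyte (0.96) and platelet (0.95) lists are framed.

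Blood cell marker lists were set beside the genes in the same 8 foxes, each list as the mean of its genes' centred log2 values. FTL ran with the monocyte and the platelet list, and these were the 2 of 60 gene and list pairs that passed. Other pairs came near. FTL had an r of 0.84 with the neutrophil list. With the monocyte and platelet lists, NCOA4 had an r of 0.86 and 0.87, and SLC11A2 of −0.83 and −0.85. None of these passed (adjusted exact permutation p from 0.0993 to 0.111). Without the 2 farthest foxes r was 0.60, 0.77, 0.81, −0.77 and −0.76. The monocyte score (7 genes, among them CD14, CD68 and VCAN) lay at −0.27 in fox 1, −0.26 in fox 6 and −0.22 in fox 5, the foxes with the lowest FTL, and at 0.28, 0.29 and 0.30 in foxes 4, 2 and 8, those with the highest FTL of the 8. For FTL and the monocyte list r was 0.96 and rho 0.98 (exact permutation p 0.00077 and 0.00040, adjusted 0.0342 and 0.0238; r = 0.92 without the 2 farthest foxes). For FTL and the platelet list r was 0.95 and rho 0.88 (exact permutation p 0.0011 and 0.0072, adjusted 0.0342 and 0.145; r = 0.92 without the 2 farthest foxes). With any 1 of the 8 foxes left out, r stayed between 0.95 and 0.98 for monocytes and between 0.94 and 0.96 for platelets, but with 7 foxes the calls mostly did not hold. The monocyte pair passed in 1 of 8 such fits, that without fox 7 (adjusted exact permutation p from 0.0119 to 0.137), and the platelet pair in 0 of 8 (0.0595 to 0.137). With each array shifted to the same median neither passed (both r = 0.94, adjusted exact permutation p 0.0655).

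The spread of the array moved with all of these. FTL had an r of 0.95 and a rho of 0.90 with the SD of all values on the array (exact permutation p 0.0021 and 0.0046, adjusted over 20 pairs 0.0412 and 0.0456; r = 0.98 without the 2 farthest foxes). The monocyte and platelet lists had an r of 0.97 and 0.90 with it (exact permutation p 0.0017 and 0.0049; rho 0.88 and 0.79; 0.94 and 0.91 without the 2 farthest foxes). NCOA4, SLC25A37, SLC40A1 and SLC11A2 had an r of 0.88, 0.83, 0.71 and −0.80 with this SD. None of them passed by r (adjusted exact permutation p from 0.0751 to 0.162), but SLC25A37 did by rho (0.90, adjusted exact permutation p 0.0456). For the remaining genes r ran from −0.62 for FTH1 to 0.63 for ACO1, with none passing. After quantile normalization again, which gives all arrays 1 distribution, r between FTL and the monocyte list was 0.80 (adjusted exact permutation p 0.255) and that with the platelet list 0.90 (adjusted exact permutation p 0.167). The part of the array spread in these relations was not tested further. TFRC and the erythroid list had an r of 0.85 and a rho of 0.81, which did not pass (exact permutation p 0.0059, adjusted 0.0993). It rested on fox 2: r was 0.65 without fox 2 and 0.56 without the 2 farthest foxes. SLC11A1 had an r of 0.52 with the neutrophil list and 0.44 with the monocyte list (adjusted exact permutation p 0.400 and 0.420). Its rho was 0.50 and 0.62, and without the 2 farthest foxes r was 0.61 and 0.93, so the low r with monocytes hung on these foxes.

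**Figure D3:**
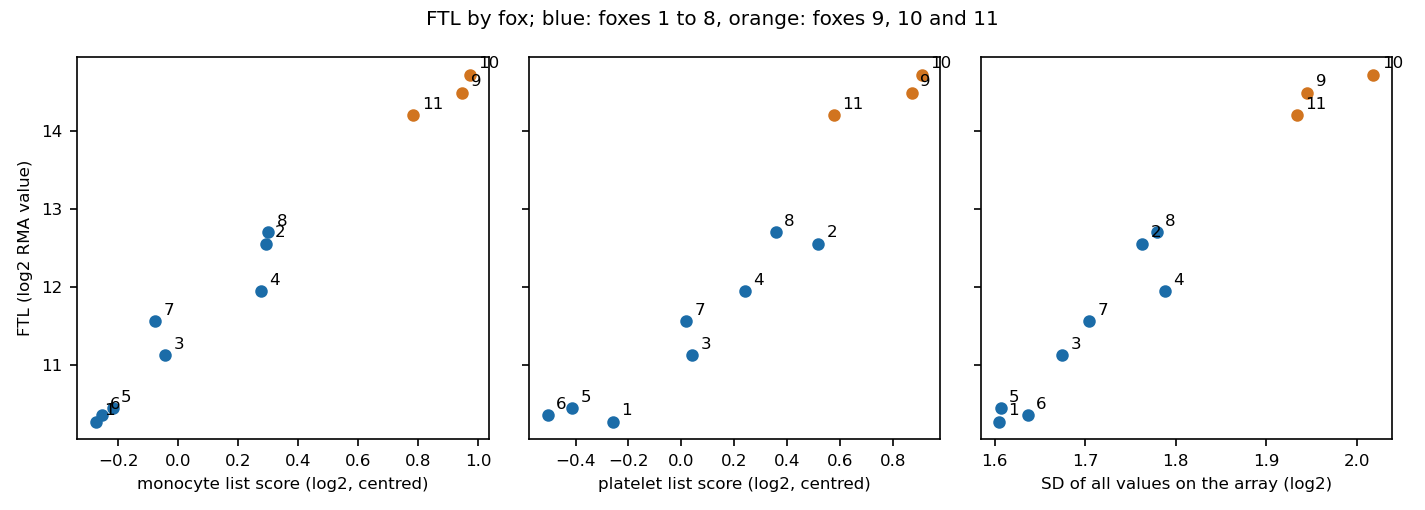
FTL (vertical axis, log2 value) of each fox, by number, against the monocyte list score, the platelet list score (both centred log2) and the SD of all values on the array (log2); blue marks foxes 1 to 8 and orange foxes 9, 10 and 11. In all 3 panels foxes 1, 5 and 6 lie lowest among the 8, with FTL from 10.27 to 10.45, and foxes 2, 4 and 8 highest, with FTL from 11.94 to 12.70.

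For each iron gene, the gene most like it over foxes 1 to 8 was sought among the 7557 genes above the median gene in mean fox level. With 8 foxes and so many genes a high r is found for any gene, so these are descriptions, with no test. They were KNOP1 for FTH1 (r = 0.96), MYCBP2 for FTL (0.98), TSEN34 for NCOA4 (0.99), CPA1 for TFRC (0.97) and SLC35B1 for SLC11A1 (0.95). They were VRTN for SLC11A2 (0.97), DRAP1 for SLC25A37 (0.97), EXOSC5 for SLC40A1 (0.97), SECISBP2 for ACO1 (0.99) and WSB2 for IREB2 (0.99).

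The control array against the foxes asks where the iron genes of this array lay outside the levels of fox blood. The first probe sets of both iron regulatory proteins and of the ferritin heavy chain were higher on the control. Those of the phagocyte pump SLC11A1 and mitoferrin SLC25A37 were lower. The second probe set of IREB2 and the further ones of SLC11A1 and SLC25A37 were not called by limma. The probes were made for the dog, and the part of their match to fox RNA in the differences between control and foxes was not tested. By limma with Benjamini-Hochberg adjustment over all tested probe sets, 5 of 22 probe sets were higher, beside 18.9% of all probe sets, and 5 lower, beside 42.1%. Either way 10 of 22 were called, beside 61.0%. The control lay above every fox in 6 of 22 and below every fox in 8, beside 21.9% and 55.1% of all. The median difference was −0.15 for the 22 and −0.46 for all probe sets. With each array shifted to the same median, which brings the median difference of all to −0.19, 5 of the 22 were higher and 3 lower (21.8% and 23.1% of all). After quantile normalization again, with a median of all of −0.31, 5 were higher and 3 lower (18.1% and 29.5% of all). Without foxes 9, 10 and 11, 7 were higher and 8 lower (22.9% and 49.1% of all). The single control is taken by limma to have the spread of the foxes, and over the 12 arrays the smallest exact permutation p is 0.0833.

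**Figure D4:**
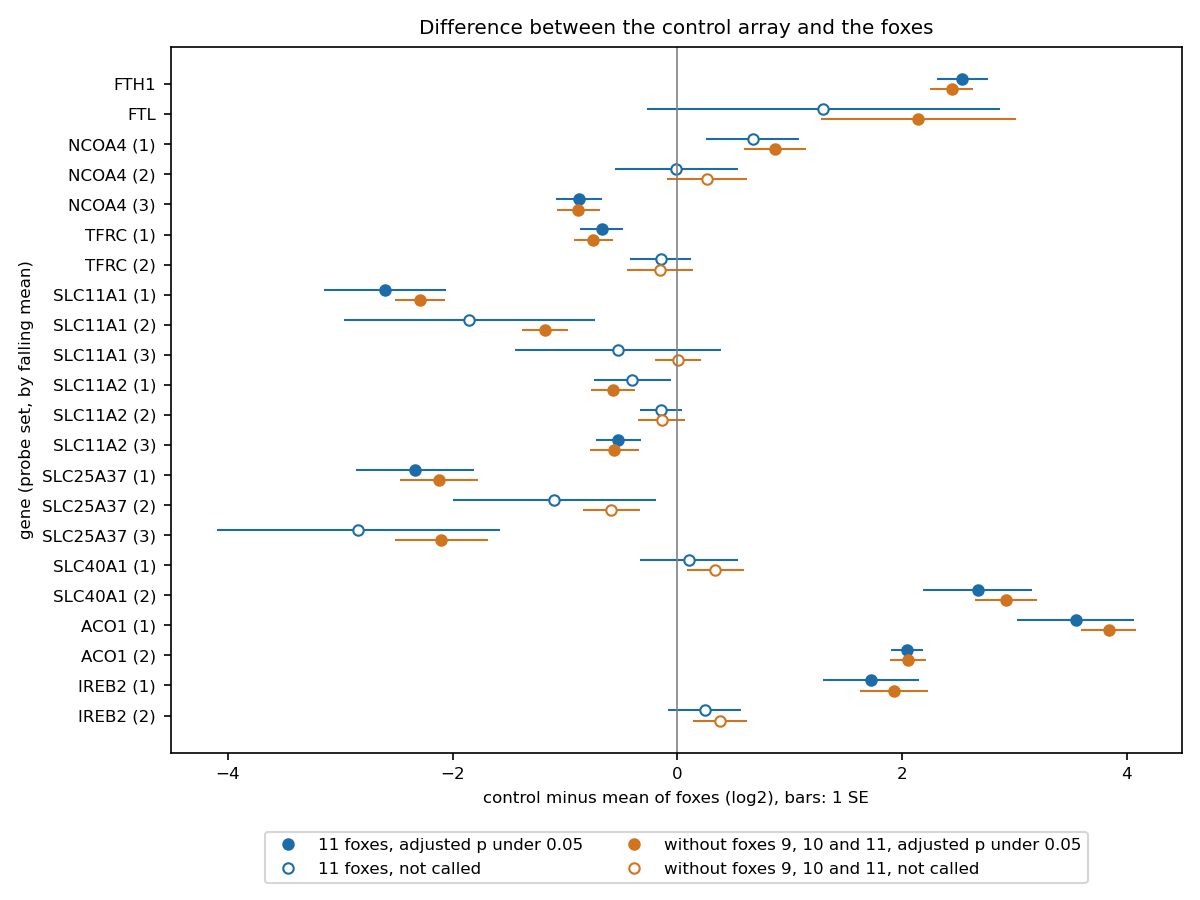
Control minus mean of the foxes (log2, horizontal axis; bars are 1 SE by limma) for the 22 probe sets, numbered within a gene by falling mean, with all 11 foxes (blue) and without foxes 9, 10 and 11 (orange); filled dots have an adjusted p under 0.05. The sensor ACO1 stands at 3.54 and 2.04 with all foxes, and SLC11A1 and SLC25A37 at −2.60 and −2.33 by their first probe sets.

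Among the sensors, 3 of 4 probe sets, from 2 genes, were higher and 0 lower, beside 18.9% and 42.1% of all probe sets. This count was not tested against all probe sets. ACO1 stood at 11.89 on the control, against a fox mean of 8.35 ± 0.55 (SD, n = 11), a difference of 3.54 (SE 0.52, adjusted p by limma 0.000163). Its second probe set differed by 2.04 (SE 0.14, adjusted p by limma 1.51e-07), from 6.28 ± 0.12 (SD, n = 11) to 8.32. The control lay above all 11 foxes in both. In the second, each fox value lay under the median of every fox array (7.06 to 7.17). IREB2 differed by 1.72 (SE 0.43, adjusted p by limma 0.00473), from 8.66 ± 0.44 (SD, n = 11) to 10.38, above all foxes. After quantile normalization again its difference was 0.94 (adjusted p by limma 0.0425). Its second probe set stood at 7.50 on the control, among the foxes (6.79 to 7.88), and was not called (0.24, adjusted p by limma 0.522).

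Of the storage genes, FTH1 stood at 8.75 on the control, against a fox mean of 6.21 ± 0.22 (SD, n = 11), a difference of 2.53 (SE 0.23, adjusted p by limma 1.71e-06). No fox reached the control. FTL stood at 12.21 ± 1.66 (SD, n = 11) and at 13.51 on the control, between foxes 1 to 8 and foxes 9, 10 and 11, and was not called (1.30, SE 1.57, adjusted p by limma 0.481). Without foxes 9, 10 and 11 the FTL difference was 2.14 (SE 0.87, adjusted p by limma 0.0453), and after quantile normalization again over all 12 arrays it was 0.21 (adjusted p by limma 0.868). NCOA4 was not called by its first 2 probe sets (0.67 and −0.01, adjusted p by limma 0.172 and 0.990), and the third was lower (−0.88, SE 0.20, adjusted p by limma 0.00311). The first stood at 10.68 on the control, just above the highest fox (10.66). Without foxes 9, 10 and 11 it was called higher (0.87, adjusted p by limma 0.0163), while after quantile normalization again its sign turned (−0.25, adjusted p by limma 0.231).

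Of the 13 probe sets of import and export genes, 4 were lower and 1 higher, beside 42.1% and 18.9% of all probe sets. The lower calls were thus a smaller share than over all probe sets. SLC11A1 stood at 7.32 on the control, against a fox mean of 9.92 ± 0.57 (SD, n = 11), below every fox, a difference of −2.60 (SE 0.54, adjusted p by limma 0.00169). Its other 2 probe sets differed by −1.85 and −0.53 (adjusted p by limma 0.164 and 0.629), and with the 3 averaged the SLC11A1 call was lost (−1.66, adjusted p by limma 0.0945). Without foxes 9, 10 and 11, the second was called (−1.18, adjusted p by limma 0.000699) and the third stood at 0.00. SLC25A37 stood at 11.57 ± 0.55 (SD, n = 11) and at 9.23, below every fox, a difference of −2.33 (SE 0.52, adjusted p by limma 0.00269). In its other 2 probe sets the control (5.71 and 3.59) lay under the lowest fox too (5.92 and 5.03), and the differences from the fox mean, −1.09 and −2.84, were not called (adjusted p by limma 0.302 and 0.0675). The latter was called without fox 10 (−2.58, adjusted p by limma 0.0435) and without foxes 9, 10 and 11 (−2.10, adjusted p by limma 0.00136). The control value behind it, 3.59, lay near the lowest of all values (3.23). Neutrophil, monocyte and erythroid markers were lower on the same array, with 5 of 7, 5 of 7 and 8 of 11 called. Their mean levels were 6.40, 8.06 and 7.45, against 9.03 to 11.44, 9.06 to 10.30 and 7.67 to 8.28 in the foxes. Platelet, T cell and B cell markers were lower too, with 4 of 7, 6 of 11 and 7 of 7 called (1 T cell marker was higher). The part of these lists in the SLC11A1 and SLC25A37 differences was not tested.

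The probe sets of the iron exporter SLC40A1 disagreed. The first stood at 8.39 on the control, among the foxes (7.55 to 8.96), and was not called (0.11, SE 0.44, adjusted p by limma 0.843). The second stood at 10.19, above every fox (6.87 to 8.39), a difference of 2.67 (SE 0.48, adjusted p by limma 0.000701). With both averaged SLC40A1 was called higher (1.39, adjusted p by limma 0.0163). For TFRC, the first probe set was lower on the control (6.19 against 6.87 ± 0.18, SD, n = 11; −0.67, SE 0.19, adjusted p by limma 0.0107) and the second was not called (−0.15, adjusted p by limma 0.640). The TFRC call was lost when each array was shifted to the same median (−0.41, adjusted p by limma 0.0786), after quantile normalization again (−0.38, adjusted p by limma 0.0862), and with its probe sets averaged (−0.41, adjusted p by limma 0.0876). Of the SLC11A2 probe sets the third was lower (−0.52, SE 0.20, adjusted p by limma 0.0404), a call lost under the same rescalings (adjusted p by limma 0.267 and 0.308) and without fox 5, 6 or 8 (adjusted p by limma 0.0505, 0.0533 and 0.0510), and the others were not called (−0.40 and −0.14). Without foxes 9, 10 and 11 the first was called too (−0.57, adjusted p by limma 0.0244).

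Further genes of iron handling were described by a list in 6 groups, of which 58 genes were measured. Of these, 11 were higher on the control and 19 lower, beside 18.5% and 44.6% of all 15115 genes (63.2% either way), and their median difference was −0.30, beside −0.53 for all genes. After each array was shifted to the same median the counts were 11 and 11 (21.0% and 26.0% of all genes). After quantile normalization again they were 9 and 18 (16.4% and 33.2%), and without foxes 9, 10 and 11 they were 14 and 21 (22.9% and 51.6%). HPX and HAMP, whose proteins the liver secretes, had the largest positive differences of the 58. HPX, the haem scavenger hemopexin, differed by 5.01 (SE 0.20), from 7.78 ± 0.19 (SD, n = 11) to 12.79. HAMP, the hormone hepcidin that closes ferroportin, differed by 3.99 (SE 0.32), from 10.14 ± 0.32 (SD, n = 11) to 14.13, and CP, the ferroxidase ceruloplasmin, by 3.05 (SE 0.86). Adjusted p-values by limma were 6.13e-10 for HPX, 5.35e-07 for HAMP and 0.00974 for CP, whose call was lost after quantile normalization again (1.92, adjusted p by limma 0.0527). Liver markers were higher on the same array (7 of 9), and their part in this was not tested.

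The counts of single groups were not tested against all genes, of which 18.5% were higher and 44.6% lower. Of 9 systemic regulators 1 was higher (HAMP) and 3 lower, namely SMAD1 (−0.85), TMPRSS6 (−0.73) and TFR2 (−0.70). The SMAD1 call was lost under both rescalings (adjusted p by limma 0.0534 and 0.0578). Of 6 plasma carriers 2 were higher and 0 lower. The neutrophil siderophore binder LCN2 (−2.63, adjusted p by limma 0.105) and the haemoglobin scavenger CD163 (1.33, adjusted p by limma 0.205) were not called with all foxes. Without foxes 9, 10 and 11 LCN2 was called lower (−1.84, adjusted p by limma 0.000989) and CD163 higher (1.82, adjusted p by limma 0.00284). Both were higher in each of foxes 9, 10 and 11 than in foxes 1 to 8 (LCN2 9.84 to 11.41 against 7.12 to 8.38; CD163 8.79 to 9.79 against 6.72 to 8.03), and both were named after their values were seen.

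Of 14 membrane reductases and further transporters 3 were higher and 6 lower, near the shares of all genes. CYBRD1, the duodenal ferric reductase, differed by 2.42 (SE 0.43) and HEPH, the intestinal ferroxidase hephaestin, by 1.56 (SE 0.14). The haem transporter SLC48A1 differed by −1.53 and the reductase STEAP1 by −1.13. The STEAP1 call was lost with each array shifted to the same median (−0.86, adjusted p by limma 0.0723). Gut markers were higher on the same array (7 of 7); their part was not tested. Of 7 intracellular chaperones and regulators 0 were higher and 3 lower, namely NBR1 (−1.07), HMOX1 (−0.80) and HERC2 (−0.68); HMOX1 was lost under both rescalings (adjusted p by limma 0.186 and 0.204). Of 18 iron-sulfur cluster assembly genes 5 were higher and 3 lower, led by the scaffold NFU1 (3.54), the chaperone HSPA9 (2.82), BOLA3 (2.70) and NUBP2 (2.36). All 4 measured genes of the group of other messages with a known iron-responsive element were lower: ALAS2, the first enzyme of erythroid haem synthesis, by −6.66 (SE 1.45), EPAS1 by −1.11, CDC14A by −0.78 and CDC42BPA by −0.40 (adjusted p by limma from 0.000589 to 0.0422). CDC42BPA lay above the median difference of all genes (−0.53), and with each array shifted to the same median it was not called (−0.14, adjusted p by limma 0.518), leaving 3 of 4.

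**Figure D5:**
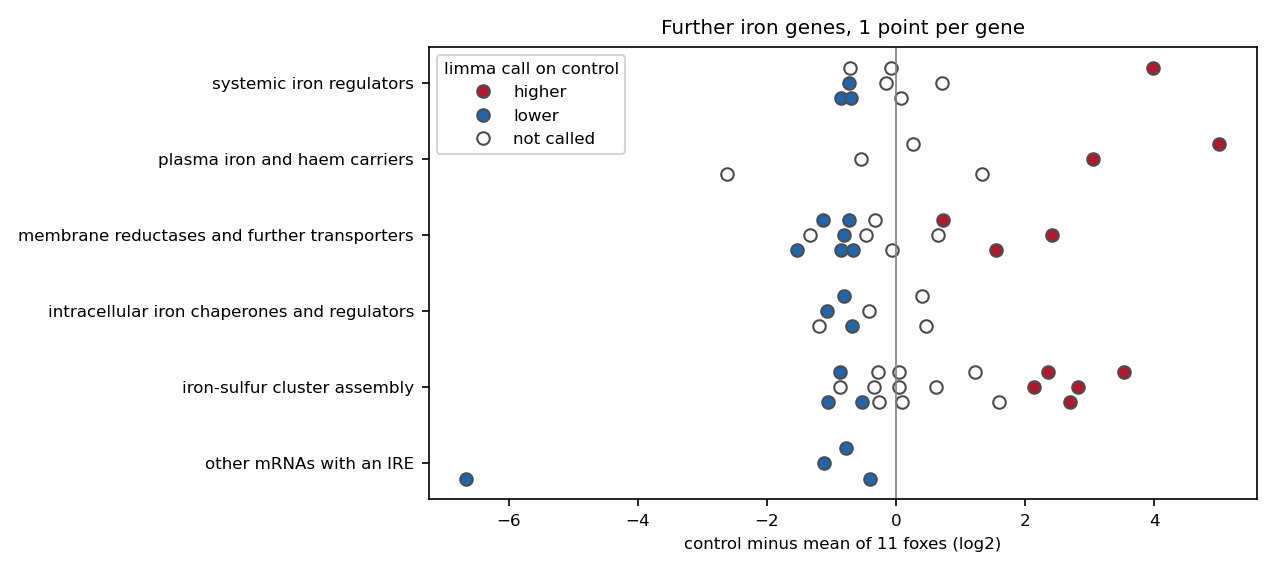
Control minus mean of 11 foxes (log2, horizontal axis) for 58 further iron genes in 6 groups, 1 point per gene; red marks a limma call as higher on the control, blue as lower, and white no call. Each gene of the iron-responsive element (IRE) group lies below 0, but the median of all genes is −0.53, and CDC42BPA (−0.40) lies above that. HPX (5.01) and HAMP (3.99) lie farthest to the right.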

How the data were processed

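Per the submitters' processing notes, the deposited log2 values were made by the authors with RMA (Affymetrix Expression Console). Their versions, and whether the 12 arrays went through RMA jointly, were not given in the sources used here. Values ran from 3.23 to 15.64, with no detection calls or background level, and the number of arrays limits the precision. Of 42924 tested probe sets (111 array controls left out), 29254 had 1 gene symbol in the probe annotation, 439 several and 13231 none. Of a gene's probe sets, that of the highest mean level stands for it.

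The control was compared with the foxes by limma 3.58.1 in R 4.3.3 (lmFit and eBayes; adjusted p under 0.05), checked on simulated data. Correlations over foxes 1 to 8 were tested by two-sided exact permutation (40320 orders), with Benjamini-Hochberg adjustment over 45 gene pairs, 60 gene and list pairs, or 20 pairs with array measures (the latter not planned). Named were all 10 genes, per group of further iron genes up to 4 called ones with the largest difference, and the most alike gene. Of the 10 symbols, 10 stand in the Arctic fox RefSeq annotation; no sequences were used here. The genes, lists, rules and the separation of foxes 9, 10 and 11 were chosen with earlier results of these data known. p-values measure the spread between samples, which may be partly technical. Alternatives were another scaling, filter, variance model, threshold or probe set rule, and foxes left out; fits of single pairs without 1 fox and of gene lists after rescaling were added after seeing the data.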

Additional observations from a re-analysis of the deposited data

How the results depend on the processing

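No paired analysis was possible because the control is 1 array and the labels give no shared replicate numbers. The count of 5 higher probe sets of the 10 genes was 3 among probe sets with a high mean, and between 5 and 7 in the other settings. The count of 5 lower ones was 2 among probe sets with a high mean or with a difference of at least 1, 3 under both rescalings, and 8 without foxes 9, 10 and 11 or by the fox range; without single foxes it ran from 4 to 6. Of the further iron genes, 11 were higher, 7 among probe sets with a high mean (11 to 12 without single foxes), and 19 lower, 11 with centred arrays and 6 with a difference of at least 1 (17 to 20 without single foxes). The 10 probe sets with an SD of at least 0.5 were 5 after quantile normalization again, 3 at an SD of at least 1, 1 without foxes 9, 10 and 11, and 8 to 10 without single foxes. The 1 called gene pair was 0 by Spearman's rho, after quantile normalization again or with a gene's probe sets averaged, 3 with centred arrays, and 0 to 2 without single foxes. The 2 gene and list pairs were 1 by Spearman's rho, 0 under both rescalings, and 0 to 3 without single foxes. Fewer samples leave fewer permutations. Signs turned for NCOA4 after quantile normalization again (−0.25) and with its probe sets averaged (−0.072), and for SLC40A1 after quantile normalization again (−0.017), none of them called. With probe sets averaged SLC40A1 gained a call (1.39) and TFRC (−0.41) and SLC11A1 (−1.66) lost theirs. The causes of these changes between settings were not tested.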
